A study of Mus musculus with 2 samples.

Results

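This report describes 8 receptor genes through which neutrophils sense bacterial peptides, complement fragments and lipid or metabolite signals: Fpr1 and Fpr2, C5ar1, C5ar2 and C3ar1, Ltb4r1 and Ptafr, and Hcar2. They were chosen by name, from what their products bind, but with earlier results of these data known. All 8 were found by symbol among 55536 annotated genes, of which 22028 are protein-coding. The libraries hold total RNA of neutrophils from the peripheral blood of C57BL/6J mice, an inbred strain, aged 5 to 6 weeks, with sex not collected. The series has a single group of 2 libraries, biological replicates 1 and 2, both with the same donor identifier, so the spread between them may be technical. No other condition exists, so levels are described and no test between conditions was possible. TPM, the number of transcripts of a gene per 1000000 transcripts, is a level per length. Values with ± are the mean and SD of both libraries (n = 2).

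These receptors are proteins that cross the membrane several times and mostly signal through inhibitory G proteins. Ligand binding on a neutrophil turns on phosphoinositide 3-kinase and the Rac GTPases, which steer movement, degranulation and the oxidative burst. Receptor kinases and arrestins then switch the receptors off. Formyl peptides come from bacteria and mitochondria, C3a and C5a are released when complement is cleaved, and leukotriene B4 and platelet-activating factor are made from membrane lipids by activated leukocytes.

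Replicate 1 held 22647028 expected counts and replicate 2 held 21471719. The limit that a count of 0 allows, 3 counts, was 0.132 and 0.140 CPM (counts per 1000000). Intervals and limits cover counting error only. All 8 neutrophil markers were detected (TPM of at least 1 in both libraries), with summed levels of 2448 and 2477 TPM in replicates 1 and 2, although Ly6g was at 1.91 and 2.29 TPM. B-cell markers passed in 8 of 8 cases (summed 629 and 573 TPM) and red-cell markers in 5 of 5 (4327 and 4262). Of 8 monocyte markers, 6 were detected, with sums of 31 TPM in replicate 1 and 27.8 in replicate 2. Of 7 macrophage markers, Adgre1 and Cd68 were detected (summed over the list 13.3 and 11.8 TPM), and C1qa, C1qb, Timd4 and Vsig4 had 0 counts in both libraries. Of 5 eosinophil markers 2 were detected (5.47 and 6.00), of 6 T-cell markers 5 (23.2 and 23.6), of 5 natural killer cell markers 1 (5.40 and 5.11), of 5 platelet markers 3 (18 and 18.1), of 5 dendritic cell markers 1 (1.68 and 1.81), and of 4 basophil and mast cell markers 0 (0.480 and 0.710). The receptors below are also known from monocytes and other myeloid cells, and the part of such cells in their levels was not tested. In bulk RNA, fewer cells of a type and less RNA per cell cannot be told apart.

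Short stretches of sequence show what separates the closest members. Fpr1 and Fpr2 are neighbours on chromosome 17 of GRCm38, with Fpr1 on the minus strand at chr17:17876471-17883940 and Fpr2 on the plus strand at chr17:17887824-17893952. They are transcribed away from each other, with 3883 bases between their annotated starts. Their coding sequences, of 1092 and 1053 bases, were identical at 69.1% of aligned bases, the highest value among the 8 members. The longest run they share is 50 bases, printed here in capitals inside 90 coding bases of Fpr1 (minus strand, chr17:17877260-17877349) and of Fpr2 (plus strand, chr17:17893096-17893185), from the GENCODE M21 transcripts.
Fpr1: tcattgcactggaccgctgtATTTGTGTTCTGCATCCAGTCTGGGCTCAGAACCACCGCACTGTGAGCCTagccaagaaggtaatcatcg
Fpr2: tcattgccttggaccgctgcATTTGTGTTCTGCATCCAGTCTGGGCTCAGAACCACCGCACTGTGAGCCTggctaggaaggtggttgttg
Of the 1294 words of 31 bases in the Fpr1 transcript, 20 also occur in Fpr2, which is 1.55%.

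Fpr2 is less distinct from other copies. In its full-length transcript Fpr2-201, 533 of 1103 words (48.3%) occur in a transcript of another gene, 487 of them in the pseudogene Gm5966 (named after its value was seen) and 151 in Fpr3, so the split of reads among these copies is uncertain. The tables gave the Gm5966 entries at most 2.8 counts in replicate 1 and 1.2 in replicate 2. In every other pairing of the members the coding sequences shared a run of at most 14 bases. Of the remaining leading transcripts, C5ar2-201 shared 6.47% of its words with other genes on the same strand, Ptafr-201 2.97% and C3ar1-201 0.795%.

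Many receptors of this kind are coded in a single long exon. In the leading transcript of each gene, the longest coding exon held between 97.6% (C5ar2) and 100% of the coding bases.

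Of the 8 receptors 7 were detected, and 6 of them lay within a narrow band of levels. For comparison, 34.9% of protein-coding genes passed the same threshold. At a TPM of at least 5 the count was 6 of 8 (14.6% of protein-coding genes), at 0.1 it was 8 (49.2%), and at 10 expected counts in both libraries it was 8 (51.6%). The median of the 8 was 7.60 TPM in replicate 1 and 7.10 in replicate 2, against 0.120 and 0.110 over all protein-coding genes and 4.42 and 4.16 over the 7682 detected ones.

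**Figure D1:**
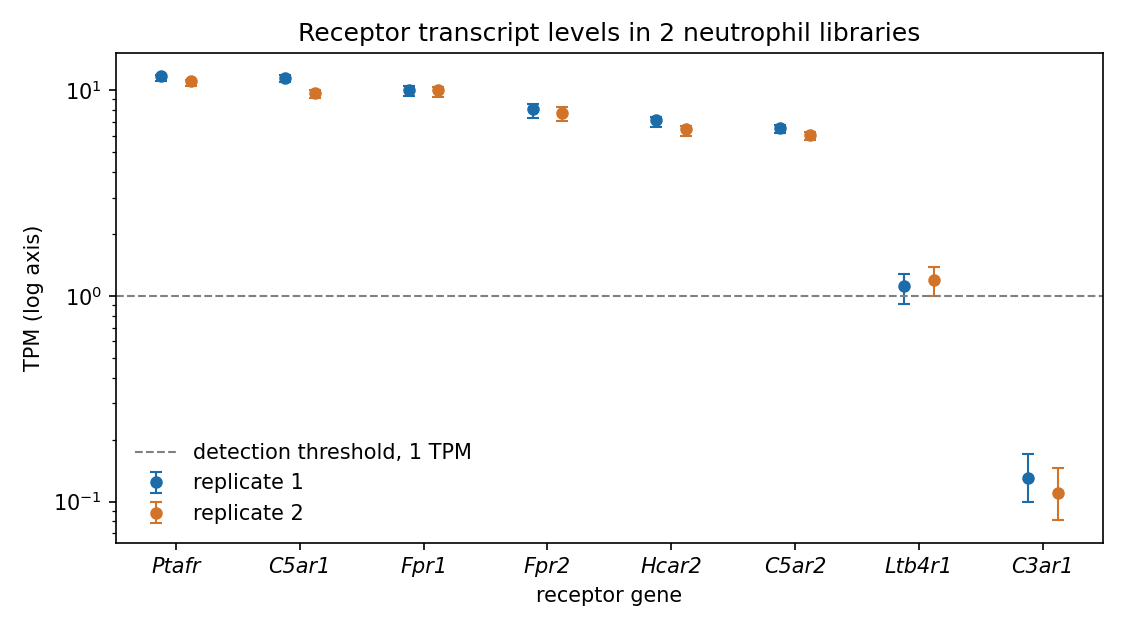
TPM on a log axis for each of the 8 receptor genes, in order of mean level; points are the 2 libraries, bars the interval of each TPM in the deposited table, and the dashed line the detection threshold. Of the 8 genes, 6 sit between 6.06 and 11.65 TPM, Ltb4r1 just above the line and C3ar1 far below it.

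Formyl peptide receptors. Fpr1 encodes the high-affinity receptor for formylated bacterial peptides. It stood at 10.04 TPM in replicate 1 and 9.96 in replicate 2, from 1137 and 1141 expected counts. Fpr2 encodes a receptor for longer formyl peptides and for several host peptides and lipids. It stood at 8.07 and 7.77 TPM, from 670.2 and 683.8 counts. Both libraries placed Fpr1 above Fpr2, by a TPM ratio of 1.24 in replicate 1 and 1.28 in replicate 2. On the log2(TPM + 1) scale, with a pseudocount of 1, the difference was 0.30 ± 0.0269 and larger than its spread, but it was 0.08 ± 0.0842 in the alignment-free table.

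The rest of the formyl peptide receptor cluster was assigned few or no reads. Among Fpr3, Fpr-rs3, Fpr-rs4, Fpr-rs6 and Fpr-rs7, of which several are known as receptors of the mouse vomeronasal organ, 4 had 0 counts in both libraries, and Fpr-rs4 had 2 counts in replicate 2. Fpr3 (chr17:17887852-17971677, plus strand) overlaps an exon of Fpr2 in the annotation and had 0 counts. With 3 counts per library as its limit, Fpr1 was at least 353-fold higher than Fpr3 in replicate 1 and at least 354-fold in replicate 2. The deposited upper bounds of Fpr3, 0.0442 and 0.0435 TPM, are higher than these limits of 0.0285 and 0.0281 TPM and allow smaller folds. In replicate 2 the 2 counts of Fpr-rs4 put Fpr1 at 398 times its level per length, with an exact 95% interval of 110 to 3291.

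Fpr2 was read as a mixture of transcripts with very different coding capacity. Fpr2-201 holds the whole coding sequence of 1053 bases. Fpr2-202 lacks 413 of these bases, removed as an intron at chr17:17892834-17893246, and its annotated coding sequence is 144 bases long. The number 413 is not a multiple of 3 (the remainder is 2). The sequences below are 40 bases each on the plus strand: Fpr2-201 at the start of that stretch (chr17:17892814-17892853), with its first 2 bases in capitals, Fpr2-201 at its end (chr17:17893227-17893266), with its last 2 bases in capitals, and Fpr2-202 across the junction, with the joined exon in capitals.
Fpr2-201, start of the stretch: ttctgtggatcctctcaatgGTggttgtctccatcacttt
Fpr2-201, end of the stretch: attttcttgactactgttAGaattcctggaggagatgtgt
Fpr2-202, junction: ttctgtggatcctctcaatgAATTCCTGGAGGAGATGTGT
The removed stretch begins with GT and ends with AG, the usual letters of an intron. The 50 bases shared with Fpr1 lie inside it, so Fpr2-202 has no word in common with Fpr1.

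Fpr2-201 took 52.7% of the TPM of its gene in replicate 1 and 68.5% in replicate 2, and Fpr2-202 took 47.3% and 31.5%. Their expected counts were 402.3 and 509.6 for Fpr2-201 and 267.9 and 174.2 for Fpr2-202. In the alignment-free table Fpr2-202 took 50.8% and 42.9%. Both tables thus gave the short-frame transcript 31.5% or more in each library, while its share moved by more than 15 percentage points between libraries in the M21 table. Fpr2-202 also reaches further at both ends, spanning 17887824 to 17893952 against 17887888 to 17893853 for Fpr2-201. Reads in those end bases fit only Fpr2-202 of these transcripts, so its share does not rest on the junction alone. Reads across the junction were not counted, and how much of the Fpr2 RNA lacks the 413 bases was not tested. On the transcript level, full-length Fpr2-201 stood at 4.25 and 5.32 TPM, below Fpr1 in both libraries.

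Anaphylatoxin receptors. C5ar1 encodes the receptor that drives chemotaxis towards the complement fragment C5a, and C5ar2 a second C5a receptor that binds arrestins and is not known to couple to G proteins. C5ar1 stood at 11.47 TPM in replicate 1 and 9.66 in replicate 2, from 2598 and 2204 counts. C5ar2 stood at 6.57 and 6.06 TPM, from 2094 and 1946 counts. C5ar1 was the higher in both libraries, by ratios of 1.75 and 1.59, and the difference of 0.66 ± 0.0888 on the log2(TPM + 1) scale was larger than its spread. The genes lie in tandem on the minus strand of chromosome 7 (C5ar1 at chr7:16246743-16259540, C5ar2 at chr7:16234585-16244154), 2588 bases apart. Their coding sequences were identical at 55.2% of aligned bases, and C5ar1 shared no word of 31 bases with any other gene on its strand.

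C3ar1 (chr6:122847138-122856161, minus strand) encodes the receptor for C3a and was the lowest of the 8. Its TPM was 0.13 in replicate 1 and 0.11 in replicate 2, from 54 counts (exact 95% Poisson interval 40.6 to 70.5) and 45 counts (32.8 to 60.2). These counts are above the limit of 3 that a count of 0 allows, which covers counting error only. Both levels were below the detection threshold, and whether reads of other genes contributed to them was not tested. C5ar1 was 88.2 and 87.8 times higher in TPM. The C3ar1 level of 0.120 ± 0.0141 TPM was near the median of 0.115 ± 0.00707 over all protein-coding genes, most of which are not detected.

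C5ar2 has 2 annotated transcripts with different starts, and the transcript tables divide its reads between these transcripts. C5ar2-201 starts at 16242331 and C5ar2-202 at 16244154 on chromosome 7, and each matches a start in RefSeq. Their far ends differ as well, at 16234585 for C5ar2-201 and 16234726 for C5ar2-202, so their shares do not measure start use alone. Both carry 1074 coding bases. The 250 bases before each start are shown, since they are what differs upstream of the transcripts compared here (RefSeq, GRCm38.p6, minus strand, chr7:16242332-16242581 for C5ar2-201 and chr7:16244155-16244404 for C5ar2-202). Capitals mark matches on either strand to GGAAGT, a core bound by ETS factors such as PU.1, and to TTNNGNAA, a loose form of the site of C/EBP factors.
C5ar2-201: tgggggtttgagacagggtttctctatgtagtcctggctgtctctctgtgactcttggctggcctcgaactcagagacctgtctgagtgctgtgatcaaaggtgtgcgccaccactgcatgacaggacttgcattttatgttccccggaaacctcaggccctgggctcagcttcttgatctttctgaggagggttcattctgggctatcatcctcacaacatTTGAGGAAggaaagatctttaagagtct
C5ar2-202: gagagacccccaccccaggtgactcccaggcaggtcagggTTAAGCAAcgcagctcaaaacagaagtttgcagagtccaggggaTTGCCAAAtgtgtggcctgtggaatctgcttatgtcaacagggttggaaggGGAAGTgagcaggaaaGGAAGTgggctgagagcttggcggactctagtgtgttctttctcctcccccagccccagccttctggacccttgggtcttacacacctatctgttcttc
The window of C5ar2-202 holds 2 matches to GGAAGT and 2 to TTNNGNAA, and that of C5ar2-201 holds none and 1. No match overlaps another in these windows. Among 32841 promoter windows of this length, 19.7% hold GGAAGT and 36.9% hold TTNNGNAA. Of the 8 windows found for 7 of the 8 members, 2 hold the former and 5 the latter. A match is a description of letters only.

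C5ar2-201 took 93.3% of the gene TPM in replicate 1 and 92.3% in replicate 2, and C5ar2-202 the remaining 6.71% and 7.70%. In the alignment-free table C5ar2-202 took 26.8% and 29.8%. Both tables put C5ar2-201 first in both libraries, while the size of the smaller share depended on the table. C5ar1 was nearly all C5ar1-201, with 97.8% and 100% of its TPM. C5ar1-202, whose start is the RefSeq one, took 2.25% in replicate 1 and 0 in replicate 2 (3.71% and 9.91% in the alignment-free table). C5ar1-203, whose coding sequence is annotated with only 544 bases, had 0 counts in both tables and libraries.

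**Figure D2:**
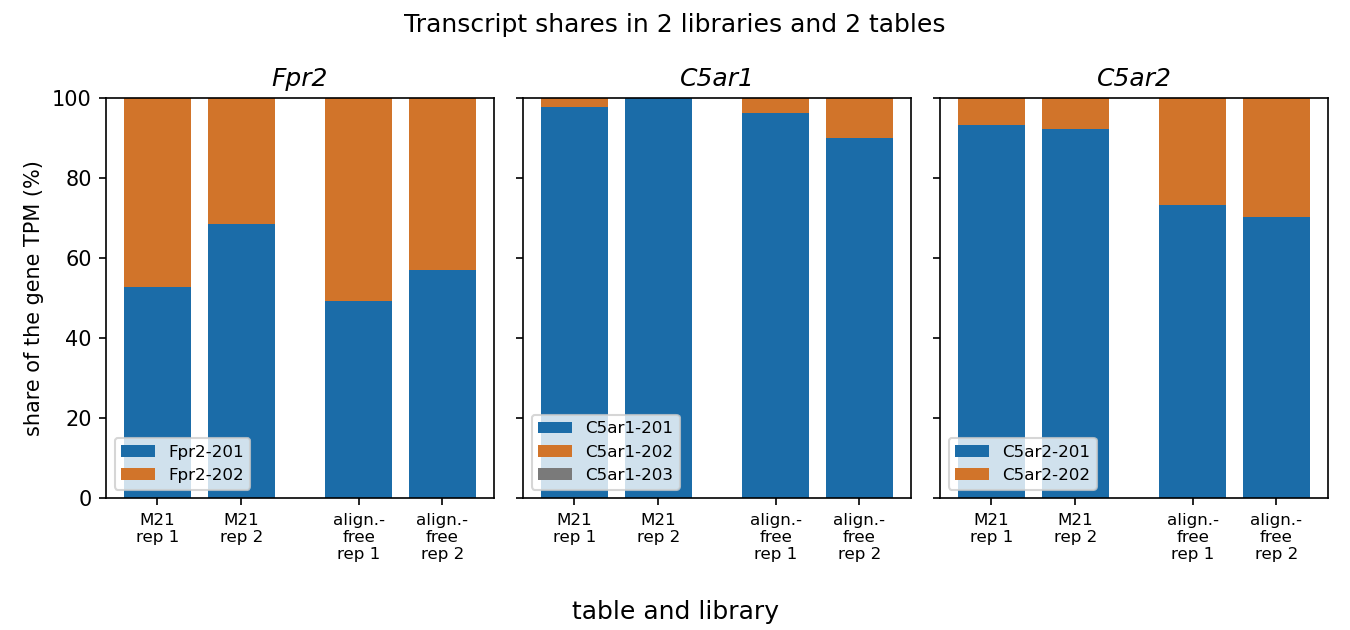
Share of the gene TPM (vertical axis, percent) taken by each annotated transcript of Fpr2, C5ar1 and C5ar2, as stacked bars for 2 libraries in the M21 transcript table and the alignment-free table. Fpr2 is divided between its transcripts in all 4 bars, C5ar1-201 takes at least 90.1%, and C5ar2-202 is larger in the alignment-free bars.

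Lipid mediator receptors. Ptafr (chr4:132564067-132582683, plus strand) encodes the receptor for platelet-activating factor and had the highest mean level of the 8. It stood at 11.65 TPM in replicate 1 and 11.02 in replicate 2, from 3954 and 3768 counts. More than 93% of protein-coding genes (93.2%) had a lower mean TPM. Ltb4r1 (chr14:55765962-55768494, plus strand) encodes BLT1, the high-affinity leukotriene B4 receptor. It stood at 1.11 and 1.19 TPM, from 133 and 144 counts (exact 95% Poisson intervals 111 to 158 and 121 to 170). The lower interval bounds of its TPM in the deposited table, 0.913 and 0.994, fall below the threshold of 1. Its detection is thus marginal at that threshold in the deposited unit, and depends on the unit. With TPM rescaled to sum over nuclear protein-coding genes alone, Ltb4r1 stood at 12.6 in replicate 1 and 14.3 in replicate 2. Ptafr was 10.5 and 9.26 times higher than Ltb4r1 in TPM.

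Ltb4r1 still stood above its low-affinity counterpart, Ltb4r2, which lies beside it on chromosome 14. Ltb4r2 (chosen after its value was seen) had 24 and 8 counts, or 0.07 and 0.02 TPM. Per length, Ltb4r1 was 16.0 times higher in replicate 1 (exact 95% interval 10.3 to 25.8) and 51.7 times in replicate 2 (25.5 to 122).

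The hydroxycarboxylic acid receptor. Hcar2 (chr5:123863570-123865499, minus strand) encodes the receptor for niacin and the ketone body beta-hydroxybutyrate and is a single-exon gene. It stood at 7.12 TPM in replicate 1 and 6.43 in replicate 2, from 1229 and 1119 counts. Hcar2 and Ltb4r1 shared no word of 31 bases with another gene. The neighbouring lactate receptor gene Hcar1 (chosen after its value was seen) had 1 count in replicate 1 and 0 in replicate 2. Per length, Hcar2 was 2173 times higher than Hcar1 in replicate 1 (exact 95% interval 389 to 85887) and at least 659-fold higher in replicate 2, with 3 counts in that library as the limit.

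In order of mean TPM the genes were Ptafr (11.3 ± 0.445), C5ar1 (10.6 ± 1.28), Fpr1 (10.04 and 9.96 in replicates 1 and 2), Fpr2 (7.92 ± 0.212), Hcar2 (6.78 ± 0.488), C5ar2 (6.31 ± 0.361), Ltb4r1 (1.15 ± 0.0566) and C3ar1 (0.120 ± 0.0141). Of the 7 steps in this order, 5 were larger than their spread and of the same sign in both libraries. The order was set from the same values, which favours positive steps in advance. The spread of 2 libraries with the same donor identifier may be technical, so the smaller steps are not established. Ptafr and C5ar1 did not differ beyond their spread (0.10 ± 0.108 on the log2(TPM + 1) scale), nor did C5ar1 and Fpr1 (0.07 ± 0.153), whose order was opposite in the 2 libraries. The step from Hcar2 to C5ar2 was small (0.09 ± 0.0194) and turned its direction in the alignment-free table. With a pseudocount of 1, the step from C5ar2 to Ltb4r1 was 1.77 ± 0.109 and that from Ltb4r1 to C3ar1 0.94 ± 0.0562. By plain TPM ratio the latter was the wider, at 8.54 and 10.8 against 5.92 and 5.09. The 6 upper members lay above 87.5% to 93.2% of protein-coding genes, Ltb4r1 above 65.3% and C3ar1 above 49.9%.

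The libraries gave similar levels for these genes, as they did for most genes tested. Of the 7 members that met the minimum for a comparison between libraries (TPM of at least 1 in either and at least 50 expected counts in the higher), 0 passed a (TPM + 1) fold of 2, against 0.923% of 9097 genes. The ratio of counts, replicate 2 over replicate 1 and scaled by TMM (edgeR's library scaling), lay between, over all 8, 0.891 (C3ar1) and 1.16 (Ltb4r1). Among the 7, only the interval of C5ar1 left out 1, at 0.907 (exact conditional binomial 95% interval 0.857 to 0.961). That is 1 of 7 members, against 42.2% of the genes tested. The deposited TPM intervals of the libraries failed to overlap for the same single gene, against 27.7% of genes. Both kinds of interval narrow as counts rise, and the members were not compared with genes of matched counts. Whether the members vary less between libraries than other genes was thus not tested. By TPM 7 of 8 members were lower in replicate 2, but by scaled counts 4 of 8 were higher, and the median gene tested was itself lower by TPM (-0.08 on the log2 scale, -0.06 for the members).

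**Figure D3:**
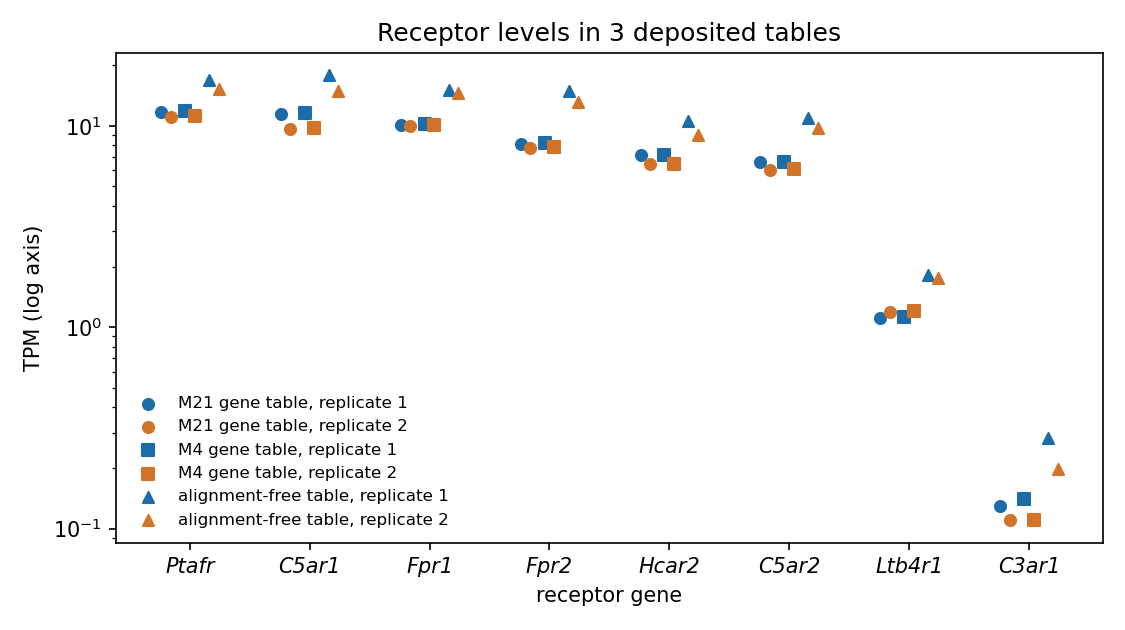
TPM on a log axis for the 8 genes in 3 deposited tables, 1 point per library. The M21 and M4 points lie close together, and the alignment-free points lie above them for all 8 genes.

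The deposited tables differed in scale and in part of the order. With M4 gene models every member was within 1.00 to 1.04 times its M21 level. With the alignment-free table the members were 1.41 (Ptafr) to 1.99 (C3ar1) times higher. The median over detected protein-coding genes was 1.82 (quartiles 1.61 and 2.14), so 7 of 8 members lay below the median and 5 below the lower quartile. There C5ar1 (16.3 ± 2.11) and Ptafr (16.0 ± 1.20) led, and Fpr2 (13.9 ± 1.21) came close to Fpr1 (14.7 ± 0.359). C5ar2 stood above Hcar2 in that table, at 10.9 against 10.5 TPM in replicate 1 and 9.71 against 9.03 in replicate 2, the opposite of the M21 order. Rescaled so that TPM sums over nuclear protein-coding genes alone, levels were 11.6 to 11.7 times higher, and Ptafr stood at 132 ± 0.152 and C3ar1 at 1.40 ± 0.112.

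Genes on either side of the receptors were taken from lists of the pathway. All 8 B-cell markers were detected in these libraries, and the part of cells other than neutrophils in the levels of these lists was not tested. Counts below are of genes detected in both libraries and are read beside the 34.9% of protein-coding genes that pass that threshold. The 15 signalling genes all passed, and their median was 9.66 ± 0.856 TPM. The inhibitory G protein subunit Gnai2 (89.3 ± 5.16), the Rac activator Dock2 (40.0 ± 3.17) and the GTPase Rac2 (36.3 ± 2.96) led, and the lowest were Gna15 (1.09 ± 0.0849) and the phospholipase Plcb3 (1.09 ± 0.106). Of 11 genes that shut receptors off 10 passed (median 7.78 ± 0.573). The receptor kinase Grk2 (64.7 ± 11.7), the regulator Rgs2 (36.3 ± 2.07) and the kinase Grk6 (30.7 ± 1.73) led, and Grk3 was lowest (0.805 ± 0.0919).

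Genes of the enzymes that make and break the lipid ligands were detected in part, as RNA. Of 12 such genes 9 passed (median 5.81 ± 0.608 TPM). Alox5ap, the partner protein of 5-lipoxygenase, stood at 93.11 TPM in replicate 1 and 101.95 in replicate 2. Pla2g7, which breaks down platelet-activating factor, stood at 59.72 and 53.59, and Lpcat2, which makes it, at 13.69 and 13.46. Pafah2 was lowest at 0.0350 ± 0.0354. Along the leukotriene route, the 5-lipoxygenase gene Alox5 (9.91 ± 0.672) and Lta4h, the gene of the hydrolase that makes leukotriene B4 (5.67 ± 0.445) stood above Ltb4r1, and the leukotriene C4 synthase gene Ltc4s at 0.110 ± 0.0990 (these 3 chosen after their values were seen).

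Few complement components were transcribed above the threshold, and most other complement receptors were. Of 10 component genes only C3 (13.7 ± 0.488 TPM) and the properdin gene Cfp (5.46 ± 0.0990) were detected, and C1qa, C1qb and Cfd had 0 counts. Hc, the mouse gene of the C5 precursor (chosen after its value was seen), had 0 and 2 counts. Of 10 other complement receptors and regulators 7 were detected, led by Cd55 (83.5 ± 10.4), Itgb2 (38.7 ± 0.198) and Itgam (28.7 ± 1.54), and Vsig4 had 0 counts. Itgam and Itgb2 encode the chains of complement receptor 3. Cd55 encodes a brake on complement carried by many cell types, B cells included. Cr2 (chosen after its value was seen), another of the 7, stood at 14.9 ± 2.04 and is also among the B-cell markers, and the part of B cells in these levels was not tested.

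Of 15 further lipid receptors 3 passed, and 10 at a TPM of at least 0.1, where 49.2% of protein-coding genes pass. The 3 were the sphingosine phosphate receptors S1pr1 (13.0 ± 1.20 TPM) and S1pr4 (5.20 ± 0.0778) and the oxysterol receptor Gpr183 (6.21 ± 0.191). S1pr1 and Gpr183 are known from lymphocytes as well. Ptgdr was lowest, at 0.0150 ± 0.0212. Of 11 further metabolite and pro-resolving receptors 4 passed, led by Gpr18 (8.12 ± 0.530), Gpr132 (3.43 ± 0.113) and Ffar1 (2.15 ± 0.0707), and Ffar4 and Sucnr1 had 0 counts. The count of this list was 4 of 11 at a TPM of 0.1 as well.

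**Figure D4:**
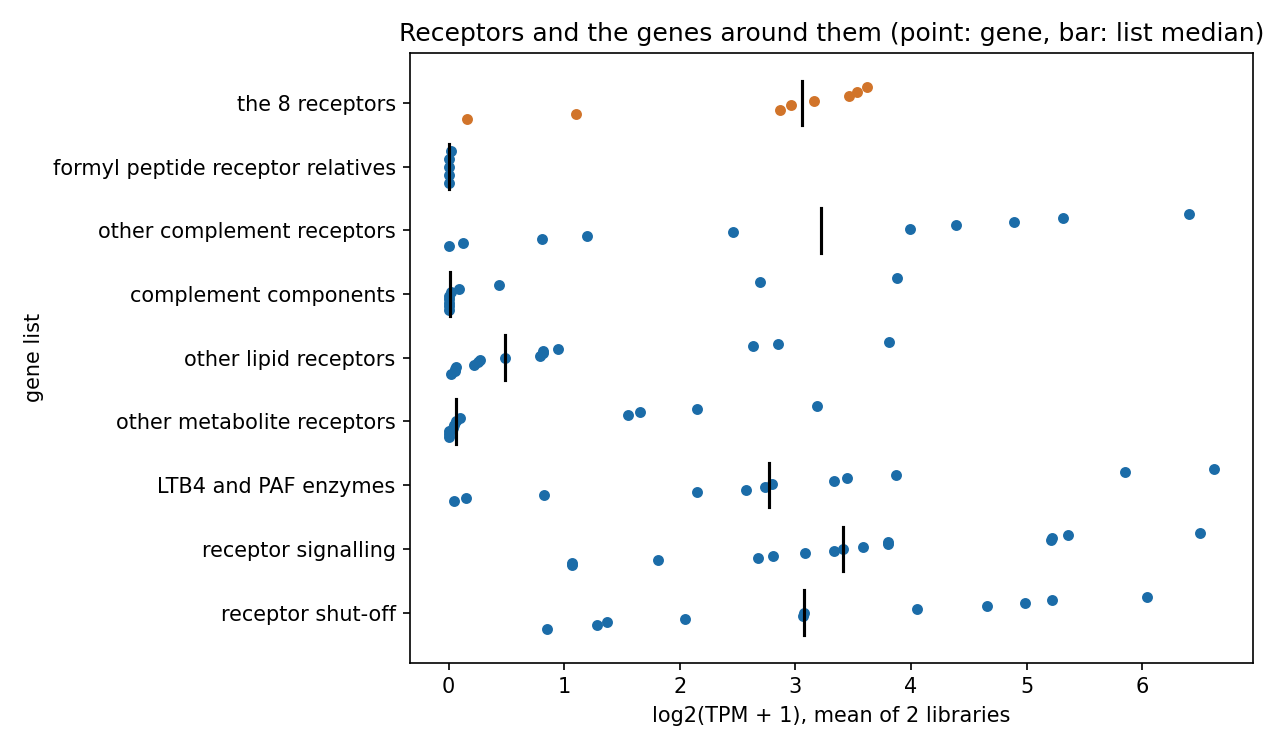
Mean log2(TPM + 1) over the 2 libraries for each gene (points) of the 8 receptors and of 8 lists of related genes, with a bar at each list's median. The medians of the receptors and of the other complement receptor, signalling, shut-off and lipid enzyme lists lie to the right, and the formyl peptide receptor relatives lie at 0.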

How the data were processed

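Total RNA of blood neutrophils was sequenced in 2 libraries from 100 ng of RNA each, per the labels, and grouped by labelled cell type. The authors deposited expected counts and TPM per gene on GENCODE M21 and on M4 (mm10), with bounds of an interval of each TPM, a signal-like value that is never negative. They also deposited expected counts, TPM and the percent of the gene TPM per transcript (M21), and an alignment-free table of estimated counts and TPM, per the file headers. The library kit was ScriptSeq v2, per the labels. Which programs made the tables, and whether strand was used, is not stated in these sources. Symbols came from the alignment-free table, joined by gene identifier, and coordinates from GENCODE M21 (GRCm38).

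The members and lists were chosen with earlier results of these data known. Named genes are all members and, in each pathway list, the 3 highest and the lowest gene; others are marked, and 1 gene that the rule names is not reported here. With 2 libraries of 1 group no gene was named for a like pattern. Levels are described without tests. Expected counts were rounded for exact intervals (95%) and for scaling with edgeR 4.0.16 (TMM, genes with at least 10 counts in either library) and DESeq2 1.42.0 (R 4.3.3). Of these steps, only the TMM scaling was tested on simulated data. Other steps used Python 3.11.15, numpy 2.4.6, pandas 2.3.3, scipy 1.17.1, Biopython 1.88 (global alignment of coding bases) and matplotlib 3.10.9. Words of 31 bases were searched in all M21 transcripts. No sequence is printed for proteins, and Hcar2 has no promoter entry.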

Additional observations from a re-analysis of the deposited data

How the results depend on the processing

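Alternatives were the M4 and alignment-free tables, TPM rescaled to nuclear protein-coding genes, other thresholds, pseudocounts and count scalings, and each library alone. The number of members detected, 7 of 8 in the main setting, was 8 with rescaled TPM, where C3ar1 also passed. It was 8 at a TPM of 0.1 and at 10 expected counts, 6 at a TPM of 5, and 7 otherwise. The median log2 level of the 8 members (3.06) was 3.70 with the alignment-free table, 6.43 with rescaled TPM, 5.74 as CPM without division by length and 2.89 with a pseudocount of 0.1, and 3.01 to 3.10 with 1 library left out. Fpr1 minus Fpr2 (0.30) was 0.08, 0.33, 0.73 and 0.33 under the same 4 settings and 0.28 to 0.32 with 1 library left out. C5ar1 minus C5ar2 (0.66) was 0.24 without division by length and 0.59 to 0.72 with 1 library left out; it moved by less than its spread otherwise. Of the 7 steps in the order of levels, 5 exceeded their spread in the main table. In the alignment-free one 3 did so in the same direction, and Hcar2 and C5ar2 changed places. The share of C5ar1-201 (98.9%) was 93.2% and that of C5ar2-201 (92.8%) was 71.7% in the alignment-free table, and with 1 library left out they were 97.8% to 100% and 92.3% to 93.3%. Fpr2-201 was 52.7% to 68.5% with 1 library left out. Other lipid receptors detected numbered 10 of 15 at a TPM of 0.1, against 3 of 15 at 1. The cause of these shifts was not tested, apart from the scale and pseudocount settings, which change the unit itself. No paired analysis was possible because the series holds 1 group. Precision is limited by depth for C3ar1 and Ltb4r1.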
